A study of Homo sapiens with 9 samples.

Results

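The core genes of the circadian clock were followed in HCA2 (human foreskin fibroblasts kept as a cell line), as the cells stood in a proliferative state and in drug-induced senescence. The genes were chosen by name: ARNTL, CLOCK, PER1, PER2, PER3, CRY1, CRY2, NR1D1, NR1D2 and DBP. All 10 were among the 26196 gene symbols in the deposited table, in 23 transcripts, and all 10 passed the filter on low values that left 12763 genes for testing.

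The mammalian clock is a feedback loop that runs in nearly every cell, cultured fibroblasts included. CLOCK and its partner BMAL1, the product of ARNTL, bind E-boxes and switch on the PER and CRY genes, whose proteins return to the nucleus and repress that pair. The same activators drive NR1D1 and NR1D2, which encode the REV-ERB repressors that act on ARNTL through the ROR element, and DBP, which encodes an activator of D-box genes. Cells in one dish drift out of phase unless a stimulus such as serum or a glucocorticoid sets them together, so a level at one time point gives neither the phase nor the amplitude of a rhythm.

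The 9 polyA RNA libraries fell into 3 groups of 3. The normal libraries came from cells labelled proliferative, which also bear the label PD-L1 positive. The other groups were PD-L1-negative and PD-L1-positive fractions of senescent cells. PD-L1, encoded by CD274, binds the inhibitory receptor PD-1 of T cells. According to the labels, the cells became senescent after 24 hours of doxorubicin, which damages DNA, at 100 nM, and BI-2536, which blocks the mitotic kinase PLK1, was then kept on them at 100 nM until 12 days had passed, so that drug treatment, time in culture and senescence cannot be told apart. The treatment text stands on the normal samples too and was read as describing the senescent cells. All cells are of 1 line, and no label says whether replicates were separate cultures, whether the medium was changed before harvest, or at what hour the cells were collected.

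The estimated depth was 11800000 to 17800000 fragments per library. Fibroblast markers were abundant, with a median over 10 genes of 294 FPKM (fragments per kilobase of transcript, scaled to depth) for normal cells, 650 for the PD-L1-negative fraction and 564 for the PD-L1-positive one. Keratinocyte, melanocyte, endothelial and leukocyte lists of 5 genes each had medians of at most 0.125, although KRT10 reached 18.2 and MITF 10.5 as group means. The melanocyte list summed to 4.86 to 8.81 FPKM in normal and 10.8 to 12.2 in senescent libraries, most of it MITF, while DCT was 0 in every library and TYR at most 0.119. The normal libraries differed from each other: replicates 1, 2 and 3 held 61.3, 33.4 and 12.7 FPKM of MKI67, which cycling cells express, against 1.64 to 6.09 in senescent libraries. CDKN1A, the gene of p21, which arrests the cell cycle, stood at 110, 214 and 311 in normal and 498 to 686 in senescent libraries.

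Promoter letters are shown for both cryptochromes, whose levels moved in opposite directions, and for PER1 and NR1D2, the members with a full E-box. RefSeq windows on GRCh38.p14, of 250 bases before and 50 after a start, matched all 10 genes in 15 windows (ARNTL is listed there as BMAL1), and the 250 bases before the start are printed 5′ to 3′ on the strand of the gene. CRY2 and NR1D2 have 2 windows each, of which the window with matches is printed, and the other window of each held no match. Capitals mark every match, on either strand, to the E-box CACGTG, the E-prime-box CACGTT, the D-box TTATGTAA or TTACGTAA, and the ROR element TAGGTCA or TGGGTCA.
CRY1 (chr12:107093550-107093799, minus strand): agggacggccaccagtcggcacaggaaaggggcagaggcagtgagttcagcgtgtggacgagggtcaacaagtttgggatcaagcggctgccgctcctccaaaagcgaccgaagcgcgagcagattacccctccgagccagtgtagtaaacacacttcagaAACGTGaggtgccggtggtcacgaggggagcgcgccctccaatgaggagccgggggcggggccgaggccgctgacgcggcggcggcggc
CRY2 (chr11:45847225-45847474, plus strand): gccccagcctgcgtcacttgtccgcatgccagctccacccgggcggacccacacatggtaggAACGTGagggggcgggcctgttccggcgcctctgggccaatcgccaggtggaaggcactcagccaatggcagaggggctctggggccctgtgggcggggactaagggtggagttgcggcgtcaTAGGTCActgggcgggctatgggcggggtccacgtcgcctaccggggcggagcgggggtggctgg
PER1 (chr17:8152405-8152654, minus strand): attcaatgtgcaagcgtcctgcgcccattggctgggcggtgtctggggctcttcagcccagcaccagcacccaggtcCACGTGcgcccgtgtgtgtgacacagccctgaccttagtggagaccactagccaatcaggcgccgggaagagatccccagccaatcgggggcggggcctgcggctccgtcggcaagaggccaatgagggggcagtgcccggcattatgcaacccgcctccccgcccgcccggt
NR1D2 (chr3:23945871-23946120, plus strand): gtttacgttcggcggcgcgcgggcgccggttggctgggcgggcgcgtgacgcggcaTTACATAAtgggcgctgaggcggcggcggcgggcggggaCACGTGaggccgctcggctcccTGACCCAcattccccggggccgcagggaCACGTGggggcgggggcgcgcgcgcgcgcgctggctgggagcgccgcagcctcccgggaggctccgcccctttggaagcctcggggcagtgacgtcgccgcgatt

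The E-box letters stood in 2 of the 15 windows, those of PER1 and NR1D2, and in 7.26% of all 35116 windows of 300 bases. NR1D2 held them at 2 places, 155 and 105 bases before the start. The E-prime-box letters stood in 5 member windows (CLOCK, CRY1, CRY2, NR1D1 and PER2) and in 5.34% of all windows. CRY1 and CRY2 shared this element as their E-type match, at 89 and 188 bases before the start. The ROR element was found for ARNTL, CLOCK, CRY2 and NR1D2 (5.69% of all windows) and the D-box for PER2, PER3 and NR1D2 (1.01%). TGACGTCA, the cAMP response element, stood in 0 of the 15 windows and in 1.85% of all, which says only that these letters are not within these windows.

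Senescent cells held less CRY1 and CLOCK and more CRY2 than normal cells, and these were the 3 members whose senescent and normal libraries did not overlap. CRY1 had a group mean of 11.1 FPKM in normal and 4.65 in senescent cells, whereas CRY2 had 5.75 and 13.2. In bulk RNA, fewer cells with a transcript and less of it per cell cannot be told apart. With both fractions pooled, 6 of 10 members passed a limma adjusted p of 0.05, 2 higher (CRY2, DBP) and 4 lower (CLOCK, PER3, CRY1, NR1D2). ARNTL, PER1, PER2 and NR1D1 did not pass. Over all 12763 genes 53.8% were called, 23.9% higher and 29.9% lower, and 48.7% had libraries that did not overlap, so that the members' 6 calls and 3 separated genes are near or under the background. The median change of the members was -0.17 on the log2 scale, against -0.04 over all genes tested. With the sign left out, the median size of change was 0.58 for the members and 0.37 over all genes.

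In normal cells the mean level was highest for PER1 at 25.6 FPKM and NR1D2 at 20.7, followed by CRY1 at 11.1, NR1D1 at 10.6, CLOCK at 8.93 and CRY2 at 5.75. PER3 at 3.82, PER2 at 3.61 and ARNTL at 2.83 came next, and DBP was lowest at 0.644. Neighbours in this order overlapped over their libraries except NR1D2 with CRY1 and ARNTL with DBP. In senescent cells PER1 stood at 37.8, NR1D2 at 15.2, CRY2 at 13.2, NR1D1 at 12.7, CLOCK at 5.85, CRY1 at 4.65, ARNTL at 2.93, PER2 at 2.43, PER3 at 1.86 and DBP at 1.23. There neighbours overlapped except PER1 with NR1D2, NR1D1 with CLOCK, and CRY1 with ARNTL. An estimated 836 to 3167 fragments per library lay behind PER1, 177 to 596 behind CRY1 and 13 to 61 behind DBP.

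**Figure D1:**
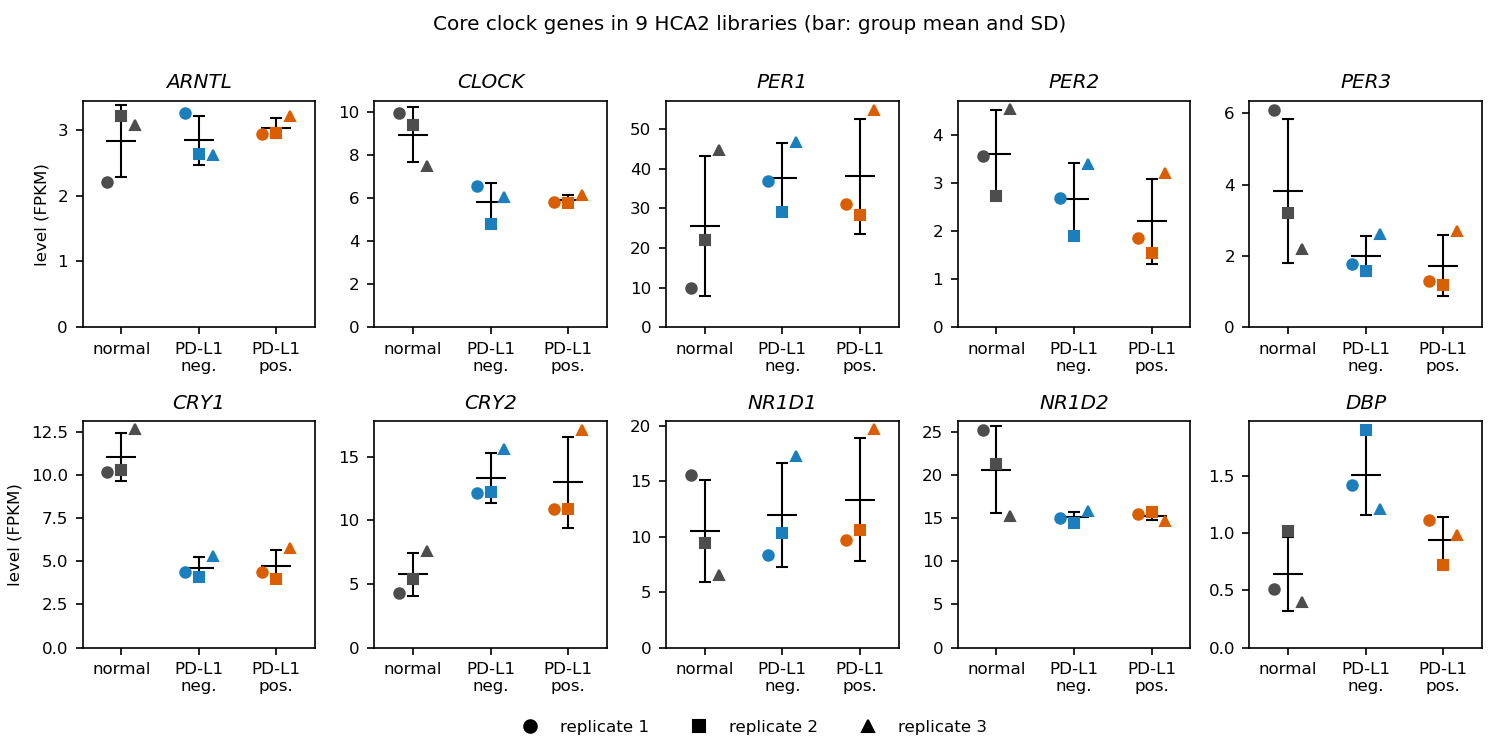
Level (FPKM) of each of the 10 clock genes in 3 normal libraries and in 3 libraries of each senescent fraction, with the group mean and SD as bars and the replicate number as symbol. CRY1 and CLOCK sat lower and CRY2 higher in all 6 senescent libraries than in any normal one, and PER1 spread from 9.98 to 44.8 within the normal group.

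Of the activators, CLOCK encodes the DNA-binding partner of BMAL1. Its levels were 9.93, 9.39 and 7.47 FPKM in normal replicates 1, 2 and 3, 6.56, 4.78 and 6.05 in PD-L1-negative, and 5.81, 5.76 and 6.15 in PD-L1-positive cells. Every senescent library was under every normal one, and normal replicate 3, the one with the least MKI67, was nearest to them. The log2 change was -0.57 ± 0.12 (SE, n = 6 senescent and 3 normal libraries, limma adjusted p = 0.00364), with -0.58 in the PD-L1-negative and -0.55 in the PD-L1-positive fraction (limma adjusted p = 0.00792 and 0.0107). With weights for each library, the call in the PD-L1-negative fraction was lost (limma adjusted p = 0.0659).

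ARNTL, the partner gene of the activator pair, had similar mean levels in the 3 groups and did not pass the test. It was measured at 2.21, 3.22 and 3.08 FPKM in normal, 3.26, 2.64 and 2.62 in the PD-L1-negative and 2.93, 2.95 and 3.20 in the PD-L1-positive libraries, and all 3 groups overlapped. Its log2 difference between senescent and normal cells was 0.05 ± 0.13 (SE), with a 95% interval from -0.23 to 0.34 (limma adjusted p = 0.744).

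The ARNTL sum was made of 6 RefSeq transcripts whose listed split differed between the groups. For NM_001297722 the table gave 0.00224, 0.309 and 0.533 FPKM for normal replicates 1, 2 and 3, 1.216, 0.847 and 0.709 in the PD-L1-negative and 1.58, 1.49 and 1.44 in the PD-L1-positive ones, with no overlap between normal and senescent. Its log2 change was 1.17 ± 0.26 (SE) in a limma fit over 19964 transcripts, of which 36.8% were called (adjusted p = 0.00774). NM_001297719 went the other way, from 1.25, 1.18 and 1.60 in normal to 0.604, 0.769 and 1.07 in the PD-L1-negative and 0.457, 0.717 and 0.719 in the PD-L1-positive libraries, a log2 change of -0.60 ± 0.20 (SE, limma adjusted p = 0.0453). How the authors divided reads among transcripts is not given in the sources used here, and 6 of the 54 ARNTL values were exactly 0. The split is therefore an estimate on few fragments, at most 68 per library for NM_001297722 and 63 for NM_001297719.

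**Figure D2:**
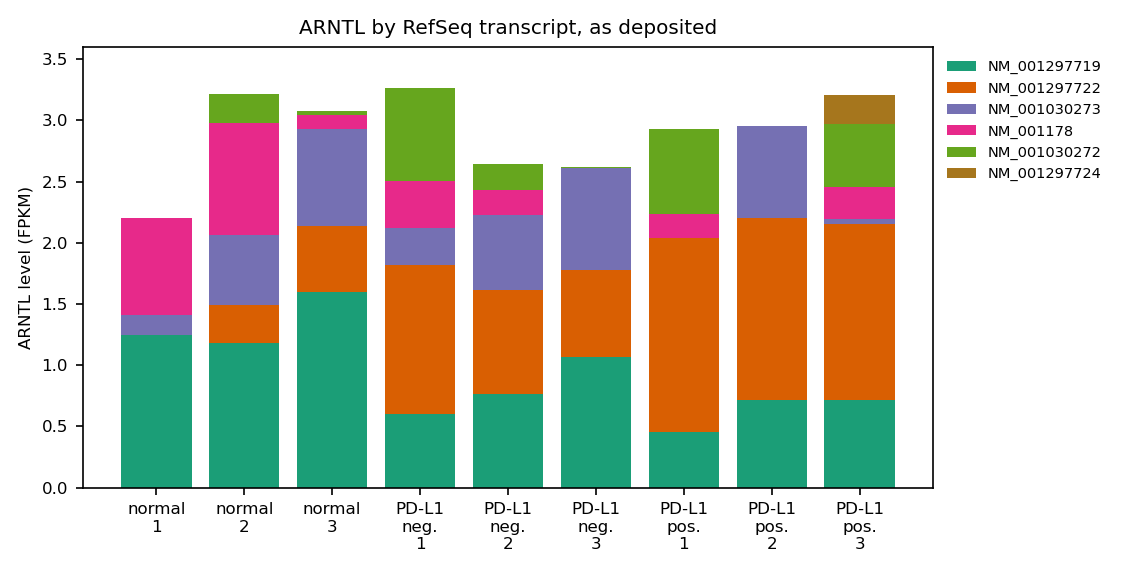
ARNTL level (FPKM, stacked) by RefSeq transcript in each of the 9 libraries, in the order normal, PD-L1-negative and PD-L1-positive with replicate numbers. The bars reach 2.21 to 3.26 in total, while the share listed under NM_001297722 was larger in every senescent library than in any normal one.

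The cryptochromes encode the repressors that block the activator pair most directly, and their transcripts moved in opposite directions. CRY1 was 10.2, 10.3 and 12.7 FPKM in normal, 4.40, 4.07 and 5.30 in the PD-L1-negative and 4.38, 3.95 and 5.77 in the PD-L1-positive libraries. CRY2 was 4.27, 5.36 and 7.63 in normal, 12.1, 12.2 and 15.6 in the PD-L1-negative and 10.9, 10.9 and 17.1 in the PD-L1-positive libraries. Normal and senescent libraries were fully apart for both genes, and replicate 3 was the highest of its group each time.

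CRY1 fell by 1.17 ± 0.14 on the log2 scale (SE, limma adjusted p = 0.000153), and CRY2 rose by 1.14 ± 0.20 (SE, limma adjusted p = 0.00118). In the PD-L1-negative fraction the log2 changes were -1.18 for CRY1 and 1.17 for CRY2 (limma adjusted p = 0.000466 and 0.00293). In the PD-L1-positive fraction they were -1.16 and 1.11 (limma adjusted p = 0.000524 and 0.00379). Both genes kept their calls in each of these comparisons under every alternative run, 20 for senescent against normal and 21 for each fraction. The fractions share the normal libraries, so their values are not independent of each other.

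Which cryptochrome transcript was the more abundant therefore differed between the groups. The log2 ratio of CRY1 to CRY2 within a library, which does not depend on that library's scaling, was 1.26, 0.94 and 0.73 in normal libraries and between -1.58 and -1.32 in the senescent ones. The group means were 0.98 ± 0.26 (SD, n = 3) and -1.49 ± 0.10 (SD, n = 6). The other ratios examined overlapped between normal and senescent libraries: ARNTL to NR1D1 averaged -1.83 and -2.04, CLOCK to PER2 1.33 and 1.32, ARNTL to DBP 2.23 and 1.32, and NR1D1 to NR1D2 -1.03 and -0.34.

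**Figure D3:**
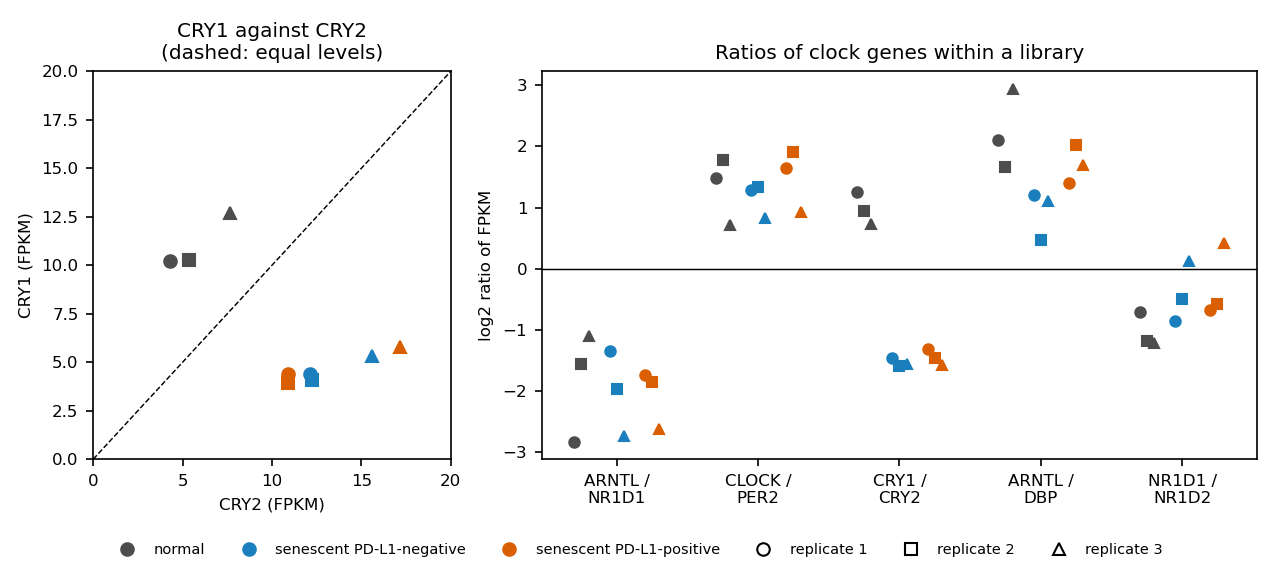
Left, CRY1 against CRY2 (both FPKM) in each library, with a dashed line of equal levels. Right, log2 ratios of 5 pairs of clock genes within each library, by group (colour) and replicate (symbol). The 3 normal libraries lie above the line of equal CRY1 and CRY2 and the 6 senescent ones below it, while the other 4 ratios overlap.

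The PER genes encode the partners with which the cryptochromes enter the nucleus, and PER1 and PER2 also respond quickly to serum, cAMP and, for PER1, glucocorticoids. PER1 was 9.98, 21.9 and 44.8 FPKM in normal replicates 1, 2 and 3. It was 36.8, 29.02 and 46.7 in the PD-L1-negative and 31.1, 28.3 and 54.7 in the PD-L1-positive libraries. Normal replicate 3 lay within the senescent range while the other 2 normal libraries lay under it.

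The log2 difference for PER1 was 0.75 ± 0.40 (SE), with a 95% interval from -0.15 to 1.66 (limma adjusted p = 0.140). Without normal replicate 3 it was 1.28 (limma adjusted p = 0.00845), and without normal replicate 1 it was 0.22 (limma adjusted p = 0.598), so single normal libraries decide it. Without replicate 3 of every group, chosen after seeing the data, it was 1.05 (limma adjusted p = 0.0127). The normal library with the most PER1 was also that with the least MKI67 and the most CDKN1A, and the part of this in the PER1 values was not tested.

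PER2 was 3.56, 2.73 and 4.55 FPKM in normal, 2.70, 1.89 and 3.39 in the PD-L1-negative and 1.86, 1.54 and 3.22 in the PD-L1-positive libraries, which overlapped. Its log2 difference of -0.51 ± 0.23 (SE) did not pass (limma adjusted p = 0.0896). It passed without PD-L1-positive replicate 3, at -0.63 (limma adjusted p = 0.0267), and without replicate 3 of every group, at -0.56 (limma adjusted p = 0.0309).

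PER3, the member of the family that mouse studies found least needed for rhythm, was lower in senescent cells by a narrow margin. It was 6.08, 3.19 and 2.20 FPKM in normal, 1.77, 1.59 and 2.63 in the PD-L1-negative and 1.2996, 1.17 and 2.70 in the PD-L1-positive libraries, so that normal replicate 3 overlapped the third replicates of both fractions. The log2 change was -0.82 ± 0.30 (SE, limma adjusted p = 0.0438), and 9 of 20 alternatives kept the call. Leaving out replicate 1 or 2 of any of the 3 groups ended it, with adjusted p from 0.0799 to 0.191. Without normal replicate 1 the log2 difference was -0.46, and without replicate 3 of every group it was -1.34 (limma adjusted p = 0.191 and 0.00191). Neither fraction passed alone, at -0.71 and -0.92 (limma adjusted p = 0.119 and 0.0532). PER3 shares 868 exonic bases with UTS2 on the other strand in GENCODE v29, 10.7% of its own, and whether reads were counted by strand is not stated.

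The REV-ERB genes encode nuclear receptors that bind heme and repress ARNTL. NR1D2 was 25.3, 21.4 and 15.3 FPKM in normal, 15.0, 14.5 and 15.8 in the PD-L1-negative and 15.5, 15.7 and 14.7 in the PD-L1-positive libraries. The senescent libraries were close together, and normal replicate 3 stood among them. The log2 change was -0.40 ± 0.14 (SE, limma adjusted p = 0.0314), 10 of 20 alternatives kept the call, and leaving out any library other than normal replicate 3 or PD-L1-negative replicate 3 ended it, with adjusted p from 0.0505 to 0.129. Without normal replicate 1 the log2 difference was -0.24, and without normal replicate 3 it was -0.60 (limma adjusted p = 0.129 and 0.000489). Each fraction alone missed the threshold, at -0.41 and -0.39 (limma adjusted p = 0.0557 and 0.0654).

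NR1D1 did not differ in a settled direction. It was 15.6, 9.46 and 6.59 FPKM in normal, 8.31, 10.3 and 17.3 in the PD-L1-negative and 9.72, 10.6 and 19.7 in the PD-L1-positive libraries. Replicate 3 was the lowest normal library and the highest of each senescent fraction. The log2 difference was 0.26 ± 0.32 (SE), with a 95% interval from -0.45 to 0.98 (limma adjusted p = 0.507). Without replicate 3 of every group it was -0.31, also not called. NR1D1 shares 263 exonic bases, 9.49% of its own, with THRA on the other strand, and THRA averaged 14.7, 14.4 and 13.4 FPKM in the 3 groups and was not called.

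DBP, a D-box activator whose transcript swings widely over the day in mouse tissues, was scarce. It was 0.514, 1.02 and 0.401 FPKM in normal, 1.42, 1.902 and 1.216 in the PD-L1-negative and 1.12, 0.724 and 0.987 in the PD-L1-positive libraries. The PD-L1-negative libraries were above all normal ones, whereas the PD-L1-positive ones overlapped them. In the fractions pooled DBP rose by 0.60 ± 0.19 on the log2 scale (SE, limma adjusted p = 0.0264), and 13 of 20 alternatives kept the call. It was lost without normal replicate 1 or 3, PD-L1-negative replicate 2 or PD-L1-positive replicate 1, with adjusted p from 0.0529 to 0.0929. In the PD-L1-negative fraction the log2 change was 0.84 ± 0.22 (SE, limma adjusted p = 0.0133), lost without PD-L1-negative replicate 2 (limma adjusted p = 0.0515). In the PD-L1-positive fraction it was 0.36 (limma adjusted p = 0.212). DBP shares 661 exonic bases, 10.1% of its own, with SPHK2 on the other strand, and SPHK2 averaged 5.83 FPKM in normal and 5.82 in senescent cells.

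One fraction at a time, 4 of 10 members passed in PD-L1-negative against normal cells (CLOCK, CRY1, CRY2 and DBP) and 3 in PD-L1-positive against normal (CLOCK, CRY1 and CRY2), with 47.5% of all genes called in each. Without normal replicate 3 these counts were 7 and 6, with PER1, PER3 and NR1D2 called in both fractions, and 51.8% and 52.2% of all genes were called. Without replicate 3 of every group both were 7, with 48.2% and 47.7% of all genes called. Without PD-L1-positive replicate 3 the second was 5, with PER2 and PER3 added, and 41% of all genes were called. The count for both fractions together was 3 without normal replicate 1, PD-L1-negative replicate 2 or PD-L1-positive replicate 1, and 4 without normal replicate 2, PD-L1-negative replicate 1 or PD-L1-positive replicate 2, fits in which 44.3% to 52.2% of all genes were called.

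Between the sorted fractions, which separate senescent cells by surface PD-L1, none of the members passed. Of all genes tested, 0 of 12763 genes were called by limma, 222 (1.74%) had an unadjusted p under 0.05, and 0 of the 10 members were among these. The largest member difference was that of DBP, at -0.48 ± 0.23 (SE) on the log2 scale for PD-L1-positive minus PD-L1-negative, with a 95% interval from -0.98 to 0.03. Its libraries did not overlap between the fractions, as was so for 9.42% of all genes. The intervals of CRY1 (-0.33 to 0.37), CRY2 (-0.57 to 0.45) and CLOCK (-0.28 to 0.35) leave room for modest differences, and that of PER1 (-1.06 to 1.03) for a change of about 1 on that scale either way. CD274 itself was 0.677, 0.708 and 0.909 FPKM in the PD-L1-negative and 1.23, 1.32 and 1.38 in the PD-L1-positive libraries. Both fractions were under the normal libraries, where CD274 was 6.23, 3.48 and 2.89 FPKM. Its log2 change in senescent against normal cells was -1.57 ± 0.20 (SE, limma adjusted p = 0.000237).

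**Figure D4:**
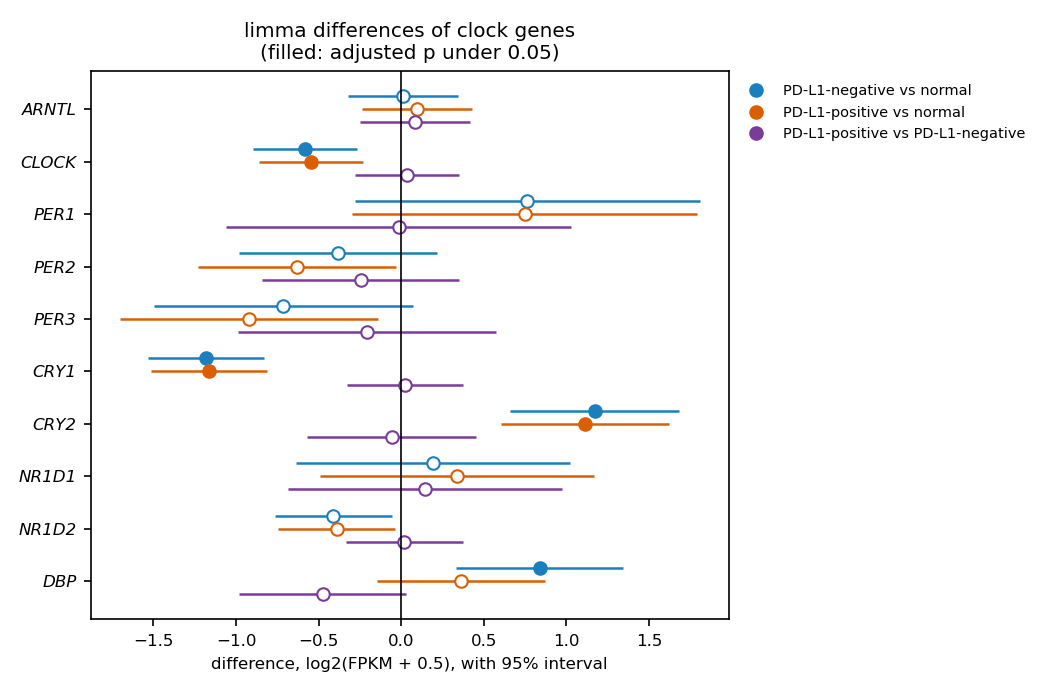
Differences of the 10 clock genes on the log2(FPKM + 0.5) scale with 95% intervals, for each senescent fraction against normal and between the fractions; filled points passed a limma adjusted p of 0.05 over all genes. CRY1 near -1.17 and CRY2 near 1.14 stand apart from 0 in both fractions, and every interval between the fractions includes 0.

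Replicate number went with the levels of several members in both senescent fractions, a pattern noticed after the values were seen. Replicate 3 was the highest library in both fractions for PER1, PER2, PER3, CRY1, CRY2 and NR1D1, 6 of 10 members, against 22.5% of all genes tested. Replicate 2 was the lowest in both for CLOCK, PER1, PER2, PER3 and CRY1, 5 of 10, against 17.2%. In PD-L1-positive cells replicate 3 held 1.84 times the mean of the other 2 libraries for PER1, 1.89 for PER2, 2.18 for PER3 and 1.95 for NR1D1, where the median over all genes was 0.997. In PD-L1-negative cells the same ratios were 1.42, 1.48, 1.56 and 1.86. The ratios of CRY1 and CRY2 were 1.385 and 1.573 in PD-L1-positive and 1.25 and 1.283 in PD-L1-negative cells.

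In normal cells replicate 3 was high for PER1 (2.81 times) and PER2 (1.45) but low for PER3 (0.474) and NR1D1 (0.526). Including the normal group, replicate 3 was highest in all 3 groups for PER1, PER2, CRY1 and CRY2, 4 of 10 members, against 11% of all genes tested. Of 12 input genes, 4 did the same: TSC22D3 and KLF9, which glucocorticoids induce, and CREM and SIK1, which cAMP induces. Other induced genes of that list did not. SGK1 was lowest in replicate 3 of both senescent fractions (95.7 and 99.2 FPKM). FKBP5 was lowest in replicate 3 of normal and PD-L1-positive cells and highest in that of PD-L1-negative cells. FOS was lowest in replicate 3 of normal and PD-L1-negative cells. The hour of harvest and the time since feeding are in no label, and their part in these levels was not tested.

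**Figure D5:**
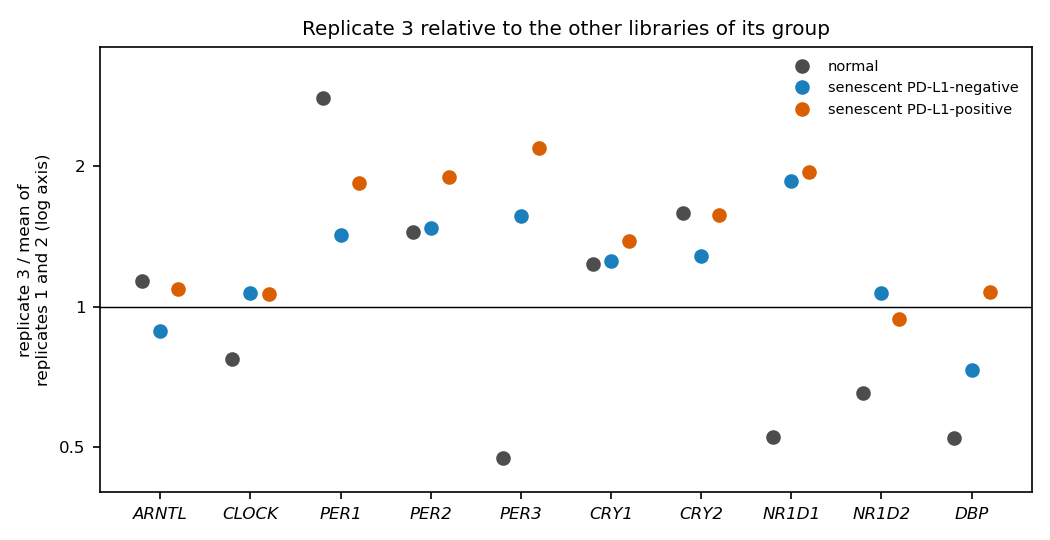
Level of each clock gene in replicate 3 divided by the mean of replicates 1 and 2 of its group, on a log axis, for normal and both senescent fractions. PER1, PER2, CRY1 and CRY2 lie above 1 in all 3 groups, while PER3 and NR1D1 lie above 1 in both senescent fractions and near 0.5 in normal cells.

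A wider list of 29 other clock genes had 25 tested, and those under the filter included RORB, HLF and FBXL21. In senescent against normal cells 9 rose, 8 fell and 8 did not pass, where 53.8% of all genes were called, 23.9% higher and 29.9% lower. Paralogs of the activators moved in opposite directions. NPAS2, which can stand in for CLOCK, rose from 5.46, 5.99 and 7.46 FPKM in normal to 9.60 to 12.7 in senescent libraries (log2 0.87 ± 0.12, SE, limma adjusted p = 0.000308). ARNTL2, a paralog of ARNTL, was 12.2, 7.29 and 4.68 in normal and 1.81 to 2.98 in senescent libraries (log2 -1.41 ± 0.25, SE, limma adjusted p = 0.0013). Normal and senescent libraries overlapped for neither gene, and normal replicate 3 was again the normal library closest to senescent cells.

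Among factors that bind the same elements as the core genes, RORA, an activator at the ROR element, rose from a mean of 0.269 to 0.818 FPKM. NFIL3, a repressor at the D-box, rose from 40.4 to 68.3 with overlapping libraries (log2 0.93 ± 0.34, SE, limma adjusted p = 0.0432). BHLHE41, an E-box repressor, rose from 2.33 to 3.36 with the fractions pooled (limma adjusted p = 0.00939). One fraction at a time it passed in PD-L1-positive cells (3.84, limma adjusted p = 0.00453) but not in PD-L1-negative ones (2.88, limma adjusted p = 0.130). Its paralog BHLHE40 was 48.0, 101 and 230 in normal and 147 to 279 in senescent libraries and did not pass (limma adjusted p = 0.0869). CIART, another repressor of the activator pair, was 8.84, 4.39 and 2.11 in normal against 2.12 to 3.52 and did not pass (limma adjusted p = 0.193), nor did TEF, a relative of DBP.

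Several enzymes that set the stability of clock proteins rose. USP2, a deubiquitinase and itself a clock-driven gene, had the widest rise of the list, from 0.572, 0.608 and 1.42 FPKM in normal to 2.51 to 5.35 in senescent libraries (log2 1.77 ± 0.27, SE, limma adjusted p = 0.000562). BTRC and FBXW11, which mark PER proteins for destruction, rose from 4.31 to 7.08 and from 17.2 to 20.8. FBXW11 did not pass in the PD-L1-positive fraction alone (limma adjusted p = 0.0773). Of the kinases, GSK3B and PRKAA2 rose by 0.22 and 0.37 on the log2 scale with the fractions pooled (limma adjusted p = 0.0452 and 0.0356). Neither passed in the PD-L1-negative (limma adjusted p = 0.0840 and 0.0870) or the PD-L1-positive fraction alone (0.0799 and 0.0515). CSNK1D, CSNK1E and PRKAA1 did not pass.

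Partners and cofactors that fell were 6 in number: SFPQ (129 to 47.9 FPKM), NONO (139 to 96.4), WDR5 (20.7 to 12.1), NCOR1 (21.6 to 15.3), TIMELESS (13.9 to 4.33) and TIPIN (10.8 to 2.72). TIMELESS and TIPIN also form a complex of the replication fork, and their normal levels went with MKI67: TIMELESS was 20.6, 14.3 and 6.77 and TIPIN 15.9, 10.3 and 6.30 in replicates 1, 2 and 3. The part of proliferation in these falls was not tested. SIRT1 and HDAC3 did not pass. In each fraction alone 13 of 25 were called, 5 higher and 8 lower, where 21% of all genes were higher and 26.6% lower in PD-L1-negative and 21.1% and 26.3% in PD-L1-positive cells, and between the fractions 0 of 25 were called and 1, BHLHE41, had an unadjusted p under 0.05.

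Of 9 genes that the clock is known to drive, 7 were tested, and 4 rose and 1 fell, where 23.9% of all genes were higher and 29.9% lower. NAMPT, the rate-limiting enzyme of NAD salvage, was 19.0, 21.7 and 28.6 FPKM in normal and 50.9 to 97.5 in senescent libraries (log2 1.57 ± 0.21, SE, limma adjusted p = 0.000311). PPARA rose by 0.37 ± 0.14 on the log2 scale (SE, limma adjusted p = 0.0475), with overlapping libraries, and USP2 as given above. WEE1, a kinase that holds cells before mitosis, fell by 0.37 ± 0.11 on the log2 scale (SE, limma adjusted p = 0.0192). KLF10 and CCRN4L did not pass, and PPARGC1A and GYS2 were under the filter. In each fraction alone 4 of 7 were called, against 47.5% of all genes.

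Among 12 genes of the signals that reset fibroblast clocks, 3 rose and 5 fell, and the same counts held in each fraction alone. Of all genes 53.8% were called in the fractions pooled (23.9% higher, 29.9% lower) and 47.5% in each alone. NR3C1, the glucocorticoid receptor, fell from 25.6 to 17.1 FPKM (log2 -0.56 ± 0.10, SE, limma adjusted p = 0.00148). Of the genes it induces, FKBP5 fell from 12.3, 9.84 and 5.87 in normal to 2.46 to 3.42 in senescent libraries, SGK1 rose from 71.3 to 104, and TSC22D3 and KLF9 did not pass. HSD11B1, the enzyme that regenerates active glucocorticoid, rose from 0.353 to 2.09 (log2 1.60 ± 0.14, SE, limma adjusted p = 4.52e-05). Serum response factor SRF fell from 37.3 to 13.7 (log2 -1.39 ± 0.13, SE, limma adjusted p = 6.11e-05), and its target FOS did not pass. CREB1 and ATF4 fell by 0.36 and 0.54 on the log2 scale, CREM rose by 0.66, and SIK1 did not pass.

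The genes whose levels went most nearly with a member's over the 9 libraries were found by Pearson's r of log2(FPKM + 0.5), as a description, since all share the difference between the groups. RBBP4 was nearest to CRY1 (r = 0.992), SUSD6 to CRY2 (0.991) and RAD51D to CLOCK (0.992). For PER1 it was EEPD1 (0.994), followed by SLC2A3, a glucose transporter (0.984), which was 15.7, 35.4 and 61.2 FPKM in normal and 44.5 to 73.2 in senescent libraries. LSM5 was nearest to NR1D2 (0.993), HOXC10 to DBP (0.970), G0S2 to NR1D1 (0.949) and EXD3 to ARNTL (0.923).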

How the data were processed

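The authors deposited FPKM values for 52741 RefSeq transcripts in 9 libraries. The tools were DESeq2 1.22.2, STAR 2.5.2a and HTSeq 0.11.2 and the build was hg19, per the submitters' processing notes, which do not give their roles, and the program that made the FPKM is not given in the sources used here. Per the labels' protocols, the library kit keeps the strand. The authors also deposited an iRegulon table with a score for each motif or track.

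Transcripts were summed per gene symbol. Genes averaging 0.5 FPKM or more were tested on log2(FPKM + 0.5) with limma 3.58.1 (R 4.3.3), with an intensity trend, in 1 fit of 3 groups and all 9 libraries (6 residual degrees of freedom), with Benjamini-Hochberg adjustment over 12763 genes and calls at 0.05. That scale understates changes of low genes. The fit was tested on simulated data in which all libraries were independent. That test cannot show how dependence between libraries would affect the calls. Since no label says whether replicates were separate cultures, p-values measure only the spread between libraries, which may be technical. The fragments behind each value were estimated from the smallest FPKM steps of 5728 genes with 1 transcript, using GENCODE v29 lengths on GRCh38. Promoter and overlap descriptions use GRCh38 and no hg19 coordinates are given. Other steps used pandas 2.3.3, numpy 2.4.6 and matplotlib 3.10.9 under Python 3.11.15.

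The members and lists were chosen with earlier results of these data known. Some listed genes enter the counts but are not reported here by name. Named were all members, listed genes, genes that overlap a member and, for each member, the genes of highest correlation. Alternatives changed the pseudocount, filter, scaling, trend, weights, replicate block and libraries, or used the transcript of highest mean.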

Additional observations from a re-analysis of the deposited data

How the results depend on the processing

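CRY1, CRY2 and CLOCK kept their direction and call against normal cells under all alternatives but weights for CLOCK in PD-L1-negative cells, and no scaling moved the median of all genes by over 0.1. The pooled calls of PER3, NR1D2 and DBP depended on single libraries and also on the processing. With all libraries kept, PER3 was lost with median-of-ratios scaling (limma adjusted p = 0.0525), no filter (0.0792), weights (0.0714) and a replicate block (0.0543). NR1D2 was lost with quantile normalization (limma adjusted p = 0.0816) and weights (0.075), and DBP with quantile normalization (0.0871). The transcript of highest mean ended the call of each. Depth limits DBP, with 13 to 61 estimated fragments per library, and the single transcripts of ARNTL. A fit on the libraries compared alone is the main one for senescent against normal, so it gave no further value there.

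The replicate numbers were not taken to pair the libraries, and no label says what a number marks. Between the senescent fractions the correlations of deviations for the same number were 0.0942, 0.223 and 0.457. For different numbers there, PD-L1-positive replicate 1 was closest to PD-L1-negative replicate 2 (0.141). The other such pairs gave 0.0643, -0.132, -0.304, -0.242 and -0.307. Same numbers gave -0.0111, 0.121 and 0.0256 between normal and PD-L1-negative, and -0.00706, 0.037 and 0.132 between normal and PD-L1-positive. The main fit and the SD over 6 senescent libraries count fractions of the same number as independent, which these values do not establish. With a replicate block 7 members were called in senescent against normal in place of 6, with PER1 (adjusted p = 0.0406) and PER2 (0.00486) gained and PER3 (0.0543) lost; 5 were called in the PD-L1-negative and 4 in the PD-L1-positive fraction, and 0 between fractions.

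Leaving out libraries, the members called ranged from 3 to 7 in each comparison with normal. Output genes called ranged from 3 to 6 in senescent and 2 to 6 in PD-L1-negative cells, input genes from 5 to 10 in PD-L1-positive cells, and all genes between the fractions from 0 to 3. With sample weights 2 output genes were called in senescent and 2 in PD-L1-negative cells, and 2 in the latter with quantile normalization. Between the fractions 1 gene of the whole table was called with a pseudocount of 0.1, 2 with no filter and 2 with sample weights. The cause of these shifts was not tested.

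Directions reversed only for log2 differences that were not called in the report. Against normal, the highest transcript of ARNTL gave -0.60 in senescent, -0.50 in the PD-L1-negative and -0.71 in the PD-L1-positive cells, and sample weights gave NR1D1 -0.0027 and -0.059 in the first 2. Leaving out libraries, ARNTL ranged from -0.090 to 0.14, -0.13 to 0.12 and -0.047 to 0.18, and NR1D1 from -0.31 to 0.58, -0.38 to 0.50 and -0.25 to 0.65. Between the fractions sample weights gave ARNTL -0.028, CLOCK -0.089 and CRY1 -0.052, quantile normalization gave CRY1 -0.0050, and the highest transcript gave ARNTL -0.21 and CRY2 0.028. Leaving out libraries there, CLOCK ranged from -0.086 to 0.12, CRY1 from -0.12 to 0.13, CRY2 from -0.27 to 0.057, NR1D1 from -0.16 to 0.43, NR1D2 from -0.010 to 0.080 and PER1 from -0.31 to 0.16.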

Other observations

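In the authors' deposited iRegulon table, 128 motif or track entries named none of the 10 clock genes as factor or as target. Of the wider list, TIPIN was a target in 40 entries and ARNTL2 in 12.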
